A study of Homo sapiens with 18 samples.

Results

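FOXO transcription factors and the inhibitors of PI3K and mTOR signalling that stand around them were followed as a group of 10 named genes: DDIT4, DDIT4L, PIK3IP1, SESN1, SESN2, SESN3, FOXO1, FOXO3, FOXO4 and TXNIP. Members were matched by gene symbol to the Ensembl identifiers of the authors' table, which has 57773 rows. A row was found for 9 of the 10, and all 9 passed the filter on low values (a mean of at least 0.5 RPM over the libraries). TXNIP could not be matched to a row and was not analysed here. DDIT4, DDIT4L and PIK3IP1 were selected on measured values, since their log2 changes with drug were among the strongest rises in these same libraries, so their changes with drug, and the differences between drugs and between sorts in those changes, are given below as descriptions, without a test. They were tested between 4N and 2N cells of the same treatment. Those tests use the same libraries as the rises, so they are not independent of the choice. A low untreated 4N level, for example, also enlarges a rise in 4N cells. The other 6 were tested in every comparison, though the whole group was named with earlier results of these data known.

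RNA was measured in RPE1 cells, an established human line from retinal pigment epithelium immortalised with telomerase, by sequencing of polyadenylated RNA with a kit that does not mark strand. Cultures received no drug, cytochalasin D or ZM447439. Cytochalasin D caps actin filaments and so stops cells from dividing after mitosis, and ZM447439 inhibits the Aurora kinases of mitosis. Cells were stained with Hoechst 33342 and sorted by DNA content into 2N and 4N cells, with 3 biological replicates in each of the 6 groups and 18 libraries in all. The groups are thus untreated 2N, untreated 4N, cytochalasin D 2N, cytochalasin D 4N, ZM447439 2N and ZM447439 4N. All groups share the growth medium with 10% serum and the Hoechst stain (2 µg/mL for 60 min). ZM447439 was given at 2.5 µM for 24 h. That treatment text stands on all 18 libraries alike, and neither the concentration nor the length of the cytochalasin D treatment is stated in it. A 4N sort can hold diploid cells in G2 or mitosis as well as tetraploid cells in G1, and the labels do not separate them.

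Growth factor receptors activate PI3K, whose lipid product recruits the kinase AKT. AKT phosphorylates FOXO factors and keeps them out of the nucleus, and it relieves the TSC complex's hold on the small GTPase RHEB, which activates the growth-promoting kinase complex mTORC1. The members oppose this route at several points. PIK3IP1 is a membrane protein that binds and inhibits PI3K. DDIT4 (REDD1) and its relative DDIT4L (REDD2) dampen mTORC1, DDIT4 through the TSC complex, and DDIT4 is induced by stresses such as hypoxia and energy loss. Sestrins (SESN1, SESN2 and SESN3) are stress-induced proteins that restrain mTORC1 through the GATOR complexes, and SESN1 and SESN2 are known p53 targets. FOXO1, FOXO3 and FOXO4 are transcription factors of quiescence, stress resistance and autophagy genes, and SESN3 is among their known targets.

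The 4 highest correlations between members over the libraries (given below) were among DDIT4, DDIT4L, FOXO1 and FOXO4. The sequences upstream of the start sites of these genes are printed for that reason. RefSeq's promoter windows on GRCh38.p14 were matched for all 9 members. The stretch shown is the part of the 250 bases before the RefSeq start that lies outside annotated exons, and each of the 4 genes has 1 start in that table. It covers chr10:72273674-72273919 on the plus strand for DDIT4, chr4:100190469-100190662 on the minus strand for DDIT4L, chr13:40666642-40666891 on the minus strand for FOXO1 and chrX:71095601-71095850 on the plus strand for FOXO4. Each is written 5′ to 3′ along its gene, with matches to the motifs searched in capitals (ATTGG is CCAAT on the other strand):
DDIT4: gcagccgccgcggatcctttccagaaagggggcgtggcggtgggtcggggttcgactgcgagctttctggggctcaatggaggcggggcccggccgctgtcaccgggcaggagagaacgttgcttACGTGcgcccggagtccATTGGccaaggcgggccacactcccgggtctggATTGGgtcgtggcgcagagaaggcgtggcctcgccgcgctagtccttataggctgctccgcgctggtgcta
DDIT4L: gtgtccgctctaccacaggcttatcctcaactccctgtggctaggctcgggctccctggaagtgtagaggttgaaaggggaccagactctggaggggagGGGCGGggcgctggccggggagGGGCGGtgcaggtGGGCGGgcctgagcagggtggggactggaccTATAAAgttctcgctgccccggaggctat
FOXO1: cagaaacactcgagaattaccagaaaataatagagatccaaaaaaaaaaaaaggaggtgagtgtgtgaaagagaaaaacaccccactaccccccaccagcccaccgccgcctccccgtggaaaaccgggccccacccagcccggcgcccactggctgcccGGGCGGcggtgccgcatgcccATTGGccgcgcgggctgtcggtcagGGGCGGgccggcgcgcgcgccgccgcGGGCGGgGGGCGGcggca
FOXO4: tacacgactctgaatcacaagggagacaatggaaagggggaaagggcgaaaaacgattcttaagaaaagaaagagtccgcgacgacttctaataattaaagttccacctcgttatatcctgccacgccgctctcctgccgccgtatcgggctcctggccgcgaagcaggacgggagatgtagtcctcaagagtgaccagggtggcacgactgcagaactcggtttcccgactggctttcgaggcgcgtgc

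The motifs, read on both strands, were the FOXO core site TGTTTAC, the E-box CACGTG, the CCAAT box, the TATA box TATAAA, the C/EBP-ATF composite site TGATGCAAT, the hypoxia response core ACGTG, which lies inside the E-box, and the GC box GGGCGG. None of the 9 windows held TGTTTAC, which 2.98% of all 35116 windows of this length held, and none held CACGTG (6.34% of all windows) or TGATGCAAT (0.216%). Each window was that of the most upstream start. PIK3IP1 has 2 starts in that table, SESN1 3 and FOXO3 4, and their other starts were not searched. Of the 250 bases, 221 in the SESN3 window and 164 in the PIK3IP1 window lie in annotated exons. DDIT4 had 2 CCAAT boxes (32.0% of all windows hold at least 1) and 1 hypoxia core starting at position -125 from the start site (18.5% of all windows). DDIT4L had a TATA box at position -29 (10.7% of all windows) and 3 GC boxes (42.6% of all windows). FOXO1 had 4 GC boxes and 1 CCAAT box at position -69, and FOXO4 held none of the 7 motifs. The GC contents of the full windows of DDIT4, DDIT4L, FOXO1 and FOXO4 were 68.8%, 65.2%, 67.2% and 54.4%, beside a median of 58% over all windows. These are matches of letters in a short window, and no binding was measured.

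Implied library sizes were 51135642 to 78294394 reads. Levels are in RPM, a gene's reads per 1000000 of that size, recovered from the deposited RPKM, and are relative to the library's implied size. Changes are differences of log2(RPM + 0.5) with their standard error (SE), tested with limma over 20005 genes, and a difference passed at an adjusted p under 0.05. The reads behind the members ran from 87 to 465 per library for FOXO1 and from 819 to 8843 for DDIT4. Both sorts of untreated replicate 3, cytochalasin D replicate 1 and ZM447439 replicate 1, 6 libraries in all, were known from earlier results of these data to stand apart from their groups. Among the members this showed in DDIT4 (14.3 RPM in untreated 4N replicate 3, against 26.4 and 26.8) and in SESN1 (32.5 RPM in ZM447439 2N replicate 1, against 12.1 and 12.9). Without these 6 libraries, counts of members that passed and the changes that moved most are given with each comparison; because the libraries were picked for their deviation, the remaining spread is small by choice. Of 10 G2/M marker genes, 10 fell in every comparison of a drug with untreated cells, where 29.7% to 40.2% of all genes fell. Their summed level was 1028 to 1491 RPM in untreated 2N, 4279 to 4705 in untreated 4N, 120.9 to 231.2 in cytochalasin D 2N, 318.9 to 350.2 in cytochalasin D 4N, 215.4 to 443.1 in ZM447439 2N and 657.2 to 838 in ZM447439 4N libraries. The part of this difference in the members' changes was not tested. Among retinal pigment epithelium markers, the keratins KRT8 and KRT18 and the factors MITF and OTX2 had means of 410, 265, 34.5 and 30.5 RPM, whereas RPE65 (0.217), TYR (0.147), TYRP1 (0.417) and TTR (0.0127) lay below the filter. SERPINF1 and RLBP1 had means of 2.03 and 0.743 RPM. BEST1 (1360 RPM) and PMEL (37.5 RPM) overlap FTH1 and CDK2 on the opposite strand. Of the 7 blood and endothelial markers with values, 6 had means of at most 0.344 RPM, and the other, CSF1R, had a mean of 76.8 RPM. CSF1R overlaps RPL7P1, a ribosomal protein pseudogene on the opposite strand (mean 67.1 RPM), over 747 bases. Which of them these reads came from was not tested.

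**Figure D1:**
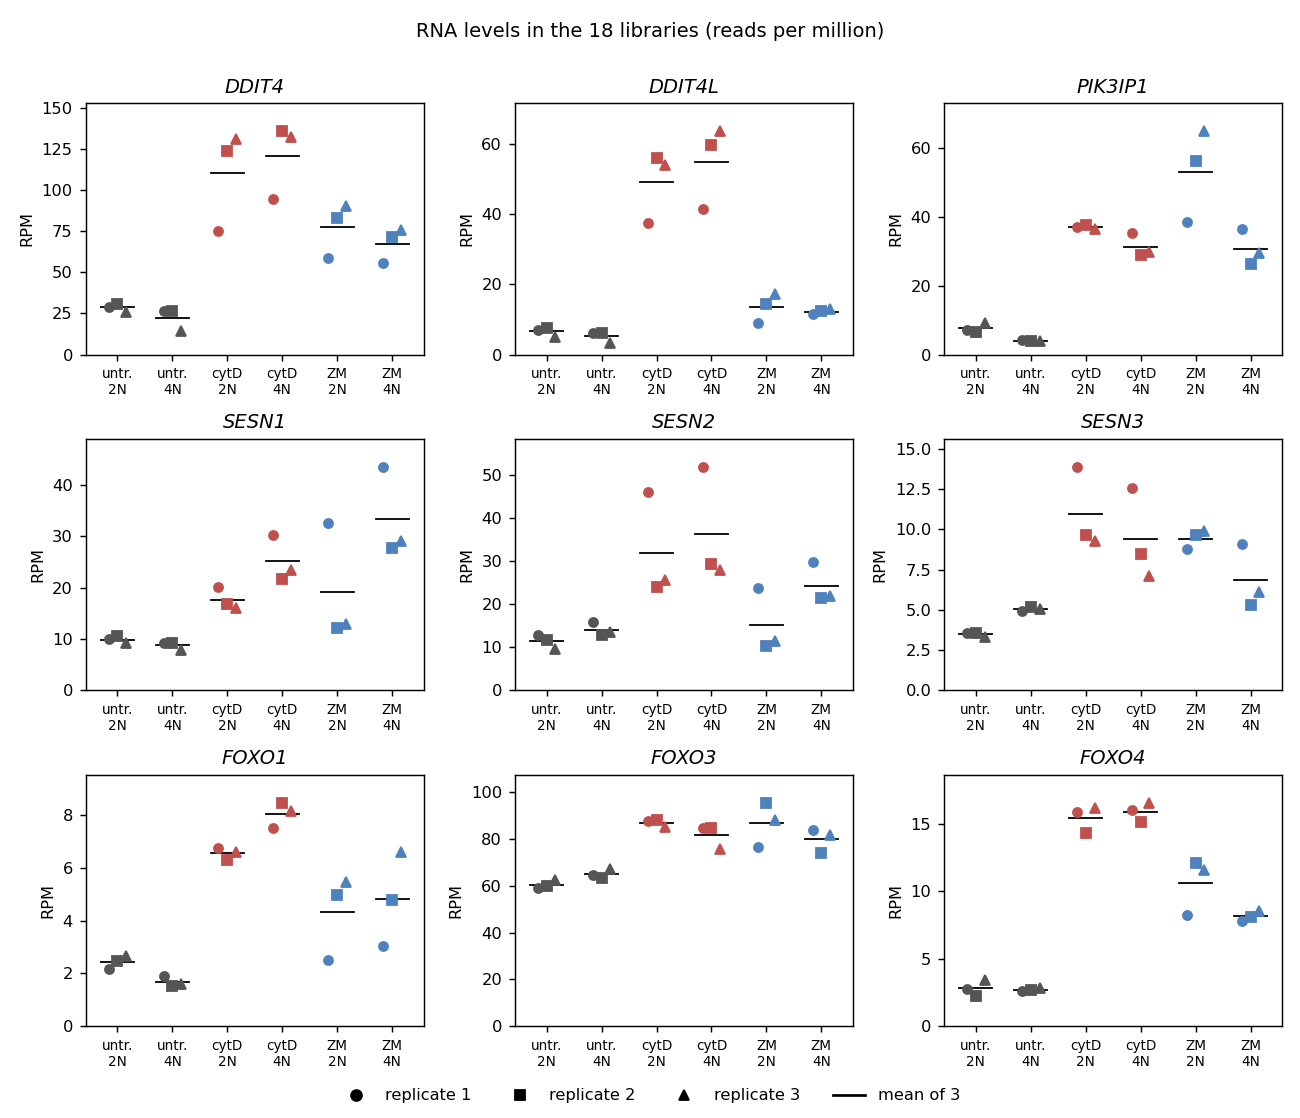
RNA level of the 9 members in each of the 18 libraries, in RPM of the implied library size (vertical axes start at 0), by treatment and sort. Symbols mark replicates 1, 2 and 3 and the bar their mean. Some drug-treated libraries lie within the untreated range for SESN2 (ZM447439 2N replicates 2 and 3) and for FOXO1 (ZM447439 2N replicate 1).

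The mTORC1 inhibitor gene DDIT4 was low in untreated cells and highest after cytochalasin D. In replicates 1, 2 and 3 it stood at 29.1, 30.9 and 26.1 RPM in untreated 2N and at 26.4, 26.8 and 14.3 RPM in untreated 4N libraries. After cytochalasin D it stood at 75.5, 123.9 and 131.4 RPM in 2N and at 94.9, 136 and 132.5 RPM in 4N libraries. With ZM447439 the levels were 58.7, 83.2 and 90.6 RPM in 2N and 55.6, 71.7 and 75.6 RPM in 4N libraries. No treated library overlapped an untreated one, and replicate 1 was the lowest in all 4 treated groups. The 4 treated groups formed one chain of overlapping ranges, from cytochalasin D 4N (121 ± 22.8 RPM, SD, n = 3) through cytochalasin D 2N (110.3 ± 30.4) and ZM447439 2N (77.5 ± 16.7) to ZM447439 4N (67.6 ± 10.6). Untreated 2N (28.7 ± 2.42) and untreated 4N (22.5 ± 7.09) overlapped each other below them. The log2 change with cytochalasin D was 2.44 (SE 0.25) in 4N and 1.88 (SE 0.25) in 2N cells, and with ZM447439 1.61 (SE 0.25) and 1.40 (SE 0.25). By size of change DDIT4 ranked 85 and 215 of 20005 genes with cytochalasin D and 127 and 197 with ZM447439, in 4N and 2N cells in turn.

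DDIT4L, the relative of DDIT4, separated the 2 drugs. It was at 7.09, 7.67 and 5.06 RPM in untreated 2N and at 6.20, 6.10 and 3.32 RPM in untreated 4N libraries. Cytochalasin D libraries held 37.4, 56.0 and 54.2 RPM in 2N and 41.4, 59.9 and 63.7 RPM in 4N cells, above all others. ZM447439 libraries lay between, at 8.88, 14.5 and 17.2 RPM in 2N and 11.5, 12.4 and 12.9 RPM in 4N cells. The 3 treatments did not overlap, while 2N and 4N libraries of 1 treatment did in each case. On the log2 scale the change was 3.30 (SE 0.26) in 4N and 2.80 (SE 0.26) in 2N cells with cytochalasin D, rank 14 and rank 26 of 20005, against 1.21 (SE 0.26) and 0.95 (SE 0.26) with ZM447439, rank 376 and rank 760.

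Strand was not marked, so reads from genes on the opposite strand cannot be told apart from the members' own. An antisense gene, AC097460.1, spans DDIT4L wholly, and its level went from 73.4 ± 1.92 RPM (SD, n = 3) in untreated 2N and 93.3 ± 10.7 in untreated 4N to 61.1 ± 11.2 and 72.7 ± 14.5 with cytochalasin D and to 33.0 ± 4.24 and 47.0 ± 8.81 with ZM447439, with no increase like that of DDIT4L. DDIT4-AS1 overlaps DDIT4 over 1066 bases and had the same order of groups as DDIT4, from 14.5 ± 4.36 RPM in untreated 4N to 77.7 ± 14.5 in cytochalasin D 4N libraries. The 2 genes' shares of these reads were not separated.

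PIK3IP1, the PI3K inhibitor, had its highest level in ZM447439 2N cells. Untreated libraries held 7.02, 6.55 and 9.19 RPM in 2N and 4.28, 3.93 and 3.99 RPM in 4N cells. Cytochalasin D libraries held 37.0, 37.6 and 36.4 RPM in 2N and 35.2, 28.7 and 29.7 RPM in 4N cells. With ZM447439 the 2N libraries stood at 38.3, 56.1 and 64.7 RPM and the 4N libraries at 36.3, 26.4 and 29.5 RPM. All treated libraries lay above all untreated ones, and only cytochalasin D 4N and ZM447439 4N overlapped among the 6 groups. The log2 change with ZM447439 was 2.76 (SE 0.16) in 4N and 2.71 (SE 0.16) in 2N cells, rank 3 and rank 5 of 20005, and with cytochalasin D 2.79 (SE 0.16) and 2.23 (SE 0.16), rank 49 and rank 90. The size of the change depended on the scale: as log2(RPKM + 0.5) the changes in 4N cells were 1.92 with ZM447439 and 1.94 with cytochalasin D, and in 2N cells 2.14 and 1.71. Without the 6 libraries that stood apart the change in ZM447439 2N cells was 3.06. PIK3IP1-AS1, which overlaps it over 36 bases, stayed between 6.94 and 10.3 RPM in group means.

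Sestrin genes rose with cytochalasin D in both sorts and with ZM447439 in 4 of 6 tests, and replicate 1 of a drug was often the highest library. SESN1 was at 9.95, 10.5 and 9.20 RPM in untreated 2N and at 9.22, 9.24 and 7.87 RPM in untreated 4N libraries. After cytochalasin D it was at 20.2, 16.9 and 16.0 RPM in 2N and 30.3, 21.7 and 23.3 RPM in 4N libraries. ZM447439 libraries held 32.5, 12.1 and 12.9 RPM in 2N and 43.4, 27.7 and 29.1 RPM in 4N cells. Every treated library lay above every untreated one, the treated neighbours in order (ZM447439 4N, cytochalasin D 4N, ZM447439 2N, cytochalasin D 2N) overlapped, and replicate 1 was the highest in each treated group. SESN1 rose by log2 1.45 (SE 0.27, adjusted p = 0.00018) in cytochalasin D 4N and by 1.85 (SE 0.27, adjusted p = 3.28e-05) in ZM447439 4N cells. In 2N cells it rose by 0.80 (SE 0.27, adjusted p = 0.0163) with cytochalasin D and by 0.77 (SE 0.27, adjusted p = 0.0244) with ZM447439. Without ZM447439 2N replicate 1 the last difference was 0.33 (adjusted p = 0.117), and both calls in 2N cells were lost with single libraries removed (cytochalasin D 2N replicate 1, adjusted p = 0.0559, and untreated 2N replicate 1 or 3 for ZM447439, adjusted p = 0.0527 and 0.0652). The antisense gene AL390208.1 overlaps SESN1 over 644 bases, with a mean of 2.22 RPM beside 19.0 RPM for SESN1.

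SESN2 rose with cytochalasin D in both sorts. Its levels were 12.9, 11.7 and 9.50 RPM in untreated 2N and 15.9, 12.8 and 13.5 RPM in untreated 4N libraries. Cytochalasin D libraries reached 45.9, 24.0 and 25.6 RPM in 2N and 51.8, 29.2 and 28.0 RPM in 4N cells, with no overlap with untreated ones. ZM447439 libraries held 23.8, 10.4 and 11.5 RPM in 2N cells, where replicates 2 and 3 lay within the untreated range, and 29.8, 21.3 and 21.8 RPM in 4N cells. Each group overlapped its neighbour in the order from cytochalasin D 4N down to untreated 2N. The rise with cytochalasin D was 1.29 (SE 0.30, adjusted p = 0.00124) in 4N and 1.40 (SE 0.30, adjusted p = 0.000694) in 2N cells. With ZM447439, SESN2 rose by 0.76 (SE 0.30, adjusted p = 0.0425) in 4N cells, and the difference in 2N cells was 0.32 (SE 0.30, adjusted p = 0.383). The call in ZM447439 4N cells was lost when any 1 of the 6 libraries compared was left out (adjusted p 0.054 to 0.143) and on the RPKM scale (0.48, adjusted p = 0.0753).

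SESN3 encodes the third sestrin and rose with both drugs in 2N cells. In untreated cells it was at 3.54, 3.58 and 3.34 RPM in 2N and 4.91, 5.19 and 5.07 RPM in 4N libraries, which did not overlap. Cytochalasin D libraries held 13.9, 9.62 and 9.30 RPM in 2N and 12.6, 8.46 and 7.13 RPM in 4N cells. ZM447439 libraries held 8.79, 9.63 and 9.88 RPM in 2N and 9.12, 5.32 and 6.08 RPM in 4N cells, so that replicate 1 of ZM447439 4N lay within the 2N range. All treated libraries were above all untreated ones, and treated neighbours in the order overlapped. In 2N cells SESN3 rose by 1.50 (SE 0.19, adjusted p = 4.68e-06) with cytochalasin D and by 1.31 (SE 0.19, adjusted p = 3.14e-05) with ZM447439. It rose by 0.79 (SE 0.19, adjusted p = 0.00165) in cytochalasin D 4N cells, and the difference in ZM447439 4N cells was 0.37 (SE 0.19, adjusted p = 0.118; without ZM447439 4N replicate 2, 0.52 with adjusted p = 0.0472). The antisense gene AP000787.1 spans SESN3 wholly and had nearly the same group means, from 3.59 ± 0.174 RPM in untreated 2N to 11.2 ± 2.48 in cytochalasin D 2N libraries (SD, n = 3), so that the strand of these reads is not known.

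Of the FOXO factors, FOXO4 had the largest log2 change in each comparison of drug with untreated cells and FOXO3 the smallest. FOXO4 was at 2.76, 2.25 and 3.44 RPM in untreated 2N and at 2.62, 2.68 and 2.85 RPM in untreated 4N libraries. It reached 15.9, 14.4 and 16.2 RPM in cytochalasin D 2N and 16.0, 15.1 and 16.6 RPM in cytochalasin D 4N libraries. ZM447439 libraries lay between, at 8.22, 12.1 and 11.6 RPM in 2N and 7.80, 8.12 and 8.54 RPM in 4N cells. As for DDIT4L, the 3 treatments did not overlap. FOXO4 rose by 2.35 (SE 0.13, adjusted p = 2.54e-10) in 4N and by 2.28 (SE 0.13, adjusted p = 5.36e-10) in 2N cells with cytochalasin D, rank 112 and rank 80 of 20005 by change. With ZM447439 it rose by 1.43 (SE 0.13, adjusted p = 2.35e-07) and 1.74 (SE 0.13, adjusted p = 4.35e-08).

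FOXO1 had the fewest reads of the members. Untreated libraries held 2.18, 2.46 and 2.68 RPM in 2N and 1.92, 1.53 and 1.61 RPM in 4N cells. Cytochalasin D libraries held 6.76, 6.30 and 6.61 RPM in 2N and 7.52, 8.46 and 8.16 RPM in 4N cells, all above the untreated ones. ZM447439 libraries were spread, from 2.50 RPM in replicate 1 to 4.98 and 5.48 RPM in 2N and from 3.05 RPM in replicate 1 to 4.79 and 6.62 RPM in 4N cells, and replicate 1 of the 2N sort lay within the untreated 2N range. FOXO1 rose by 1.97 (SE 0.23, adjusted p = 1.37e-06) in 4N and by 1.27 (SE 0.23, adjusted p = 0.00016) in 2N cells with cytochalasin D. With ZM447439 it rose by 1.23 (SE 0.23, adjusted p = 0.000305) in 4N and by 0.65 (SE 0.23, adjusted p = 0.0249) in 2N cells. The last call was lost without untreated 2N replicate 1 or 2 or ZM447439 2N replicate 2 or 3 (0.47 to 0.66, adjusted p 0.0532 to 0.127).

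FOXO3 changed by 0.29 to 0.52 on the log2 scale. It was at 59.1, 59.9 and 62.5 RPM in untreated 2N and at 64.6, 63.4 and 67.4 RPM in untreated 4N libraries. Treated libraries ran from 85.1 to 88.2 RPM in cytochalasin D 2N, 76.0 to 85.0 in cytochalasin D 4N, 76.9 to 95.5 in ZM447439 2N and 74.1 to 84.2 in ZM447439 4N cells, all above the untreated range. It rose by 0.52 (SE 0.07, adjusted p = 9.58e-06) with cytochalasin D and 0.51 (SE 0.07, adjusted p = 1.9e-05) with ZM447439 in 2N cells, and by 0.33 (SE 0.07, adjusted p = 0.000725) and 0.29 (SE 0.07, adjusted p = 0.00258) in 4N cells.

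Across the 6 members tested with drug, 6 rose with cytochalasin D in 4N cells, where 32.2% of the 20005 genes rose, 40.2% fell and 72.5% changed, and 6 rose in 2N cells, where 32.7% rose and 68.4% changed. With ZM447439, 5 of 6 rose in 4N cells (24.9% of all genes rose and 57.5% changed) and 5 of 6 in 2N cells (26.7% rose and 56.5% changed). SESN3 in the first and SESN2 in the second did not pass. None of the 6 fell. The members were named with earlier results of these data known, so these counts are not independent of that choice. Both drugs were compared with the same untreated libraries. Because all values are relative to a library's implied size, more RNA per cell of a member and more cells that make it cannot be told apart. Without the 6 libraries that stood apart, 6 of 6 passed with cytochalasin D in each sort (79.4% of all genes in 4N and 77.5% in 2N cells) and 5 of 6 with ZM447439 in each sort (69.1% and 71.1%).

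**Figure D2:**
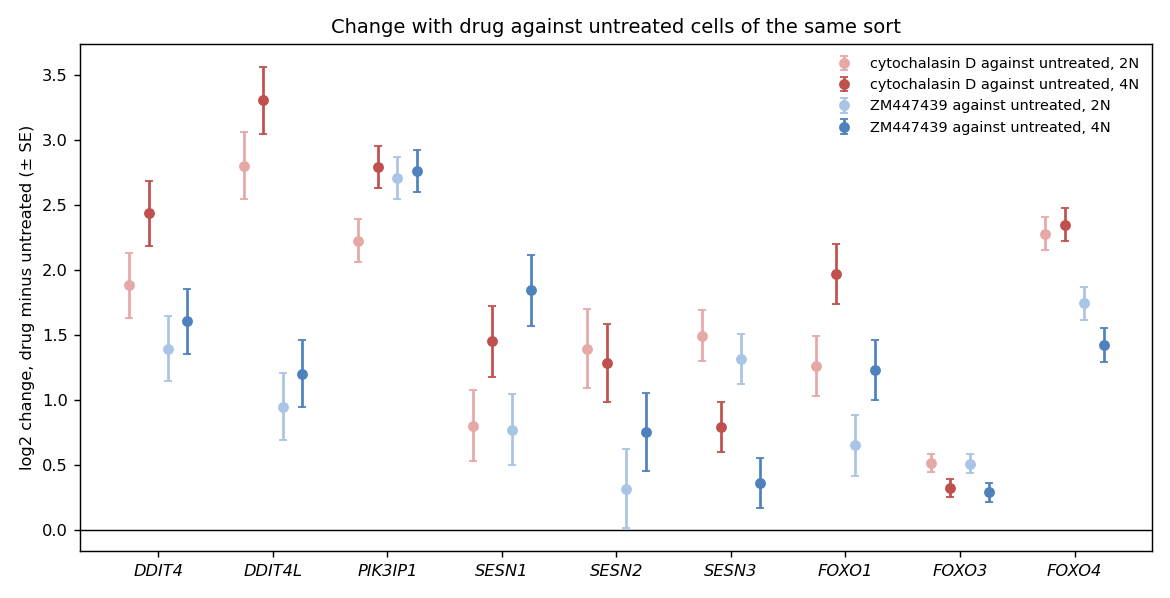
Log2 change of each member with cytochalasin D (red) or ZM447439 (blue) against untreated cells of the same sort, pale for 2N and dark for 4N, with bars of 1 SE from limma. DDIT4, DDIT4L and PIK3IP1 were chosen for their rise and carry no test; FOXO4 reaches 2.35 with cytochalasin D and FOXO3 stays between 0.29 and 0.52.

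The drugs were next compared with each other in cells of the same sort. In 4N cells 2 of the 6 members tested passed (43.7% of all genes did), and both were higher with cytochalasin D. FOXO4 was higher by log2 0.92 (SE 0.13, adjusted p = 4.78e-05) and FOXO1 by 0.74 (SE 0.23, adjusted p = 0.0171). The FOXO1 call was lost without cytochalasin D 4N replicate 2 (adjusted p = 0.0529) or ZM447439 4N replicate 1 (0.48, adjusted p = 0.0963). SESN2 (0.53, SE 0.30, adjusted p = 0.17) and SESN3 (0.43, SE 0.19, adjusted p = 0.0862) did not pass. Same-numbered cytochalasin D and ZM447439 libraries deviated together in 12 of 12 pairs, though whether the numbers pair the drugs was not settled. With the replicate number as a block, SESN2 (adjusted p = 0.00963) and SESN3 (adjusted p = 0.0388) passed as well, so that 4 of 6 did, beside 49.7% of all genes. SESN3 also passed with no block when cytochalasin D 4N replicate 3 (0.60, adjusted p = 0.03) or ZM447439 4N replicate 1 (0.64, adjusted p = 0.013) was left out. FOXO3 differed by 0.03 (SE 0.07, adjusted p = 0.733) and SESN1 by -0.39 (SE 0.27, adjusted p = 0.262). Without the 6 libraries that stood apart 5 of 6 passed, among them SESN2 (0.40), SESN3 (0.42) and SESN1, which was then lower with cytochalasin D (-0.33, adjusted p = 0.000113), and 59.7% of all genes passed. Of the 3 members chosen for their rise, DDIT4L was higher with cytochalasin D by 2.10 (SE 0.26), rank 13 of 20005, and DDIT4 by 0.83 (SE 0.25), rank 491, while PIK3IP1 differed by 0.03 (SE 0.16).

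In 2N cells 3 of the 6 members tested passed (38.4% of all genes), and with the replicate number as a block 3 of 6 (44.5% of all genes). SESN2 (1.07, SE 0.30, adjusted p = 0.0111), FOXO1 (0.61, SE 0.23, adjusted p = 0.0483) and FOXO4 (0.54, SE 0.13, adjusted p = 0.00444) were higher with cytochalasin D. The SESN2 call was lost without cytochalasin D 2N replicate 1 (0.78, adjusted p = 0.0551) or ZM447439 2N replicate 2 (0.86, adjusted p = 0.0533). FOXO1 lost its call without any 1 cytochalasin D 2N library (0.59 to 0.64, adjusted p 0.0851 to 0.105) or without ZM447439 2N replicate 1 (0.30, adjusted p = 0.248). SESN1 differed by 0.03 (SE 0.27, adjusted p = 0.944) and by 0.48 (adjusted p = 0.0433) without ZM447439 2N replicate 1. Without the 6 libraries that stood apart 4 of 6 passed, SESN1 (0.38) among them, as did 54.3% of all genes. Of the 3 chosen members, DDIT4L was higher with cytochalasin D by 1.85 (SE 0.26), rank 24 of 20005, and DDIT4 by 0.49 (SE 0.25), whereas PIK3IP1 was higher with ZM447439 (-0.48 for cytochalasin D minus ZM447439, SE 0.16).

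4N and 2N cells of the same treatment were compared next. Sorts with the same number within a treatment deviated together in all 9 pairs, but so did 6 of 18 pairs with other numbers. The culture was also fitted as a block, which assumes that same-numbered sorts came from 1 culture. In untreated cells PIK3IP1 was lower in 4N than in 2N cells in 3 of 3 replicates, with log2 differences of -0.66, -0.67 and -1.11 (fitted -0.81, SE 0.16, adjusted p = 0.00219), and was the only member of 9 to pass where 20.6% of all genes did (6.77% lower and 13.8% higher in 4N cells). With the culture block 6 of 9 passed (33.5% of all genes). Among them were DDIT4, DDIT4L and PIK3IP1, whose choice used these same untreated libraries. PIK3IP1 (-0.81, adjusted p = 0.00192), FOXO1 (-0.43, SE 0.10, adjusted p = 0.00547), DDIT4 (-0.40, SE 0.11, adjusted p = 0.0127) and DDIT4L (-0.34, SE 0.11, adjusted p = 0.0331) were then lower and SESN3 (0.48, SE 0.125, adjusted p = 0.0103) and SESN2 (0.30, SE 0.11, adjusted p = 0.0452) higher in 4N cells. DDIT4 was at 14.3 RPM in untreated 4N replicate 3 against 26.1 RPM in untreated 2N replicate 3, and without the libraries that stood apart its difference was -0.17 (adjusted p = 0.00998), with 6 of 9 members and 36.7% of all genes passing.

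After cytochalasin D no member passed between the sorts in limma, with or without the culture block, and over all genes 1 of 20005 passed without it (0.005%; 1052 at an unadjusted p under 0.05) and 0.885% with it. The largest difference was that of SESN1, higher in 4N cells in 3 of 3 replicates (0.57, 0.35 and 0.53; fitted 0.49, SE 0.27, adjusted p = 0.995, and adjusted p = 0.0738 with the block). Without the libraries that stood apart 2 members passed (11.4% of all genes), SESN1 higher by 0.44 (adjusted p = 4.18e-05) and PIK3IP1 lower (-0.34, adjusted p = 0.00267) in 4N cells.

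In ZM447439 cells PIK3IP1 was again lower in 4N cells (-0.76, SE 0.16, adjusted p = 0.013) and was alone among 9 members to pass, where 7.74% of all genes did (4.97% higher and 2.76% lower). Its difference was -0.08 in replicate 1 against -1.08 and -1.12 in replicates 2 and 3, and the call was lost without replicate 2 or 3 of either sort (-0.60 to -0.73, adjusted p 0.0615 to 0.0817). With the culture block 5 of 9 passed (22.4% of all genes). SESN1 (0.91, SE 0.11, adjusted p = 0.000444) and SESN2 (0.74, SE 0.11, adjusted p = 0.000904) were higher in 4N cells, while PIK3IP1 (adjusted p = 0.0062), SESN3 (-0.47, SE 0.125, adjusted p = 0.0189) and FOXO4 (-0.35, SE 0.10, adjusted p = 0.0244) were lower. Replicate 1 had the smallest difference in each of these 5 genes. Within replicates 2 and 3, SESN1 was higher in 4N cells by 1.17 and 1.14 and SESN2 by 1.00 and 0.89, beside 0.41 and 0.32 in replicate 1. Without ZM447439 2N replicate 1 and with no block, SESN1 (1.35, adjusted p = 0.000114), SESN2 (1.10, adjusted p = 0.0107), FOXO4 (-0.51, adjusted p = 0.00495) and FOXO3 (-0.20, adjusted p = 0.0361) passed, and without ZM447439 4N replicate 1 SESN3 did (-0.68, adjusted p = 0.0313). Without all 6 libraries that stood apart, 8 of 9 passed, as did 42.5% of all genes. G2/M markers differed between these sorts as well (9 of 10 higher in 4N), which was not tested against the members.

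**Figure D3:**
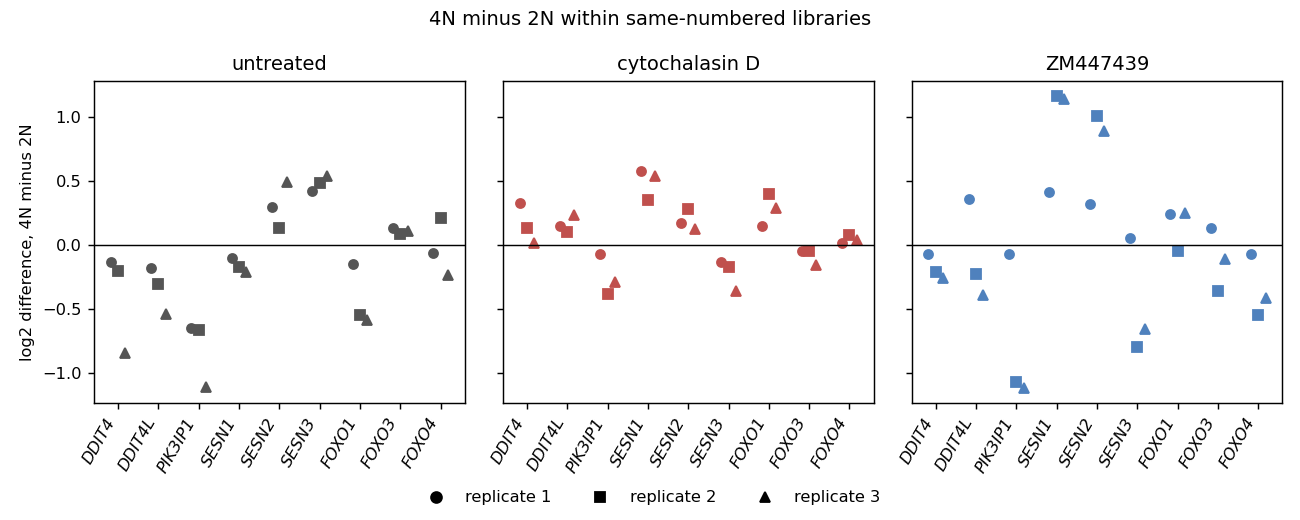
Difference between the 4N and the 2N library of the same number, as log2(RPM + 0.5), for each member and treatment; symbols mark replicates 1, 2 and 3 and the line marks 0. PIK3IP1 lies below 0 in all 9 pairs, and in ZM447439 cells replicates 2 and 3 of SESN1 lie at 1.17 and 1.14.

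An interaction term tested whether the 4N minus 2N difference with a drug departed from that in untreated cells. With ZM447439 and no block, SESN3 passed among the 6 members tested (11.3% of all genes did, 4.33% with a positive and 7.01% with a negative term): it was higher in 4N than in 2N cells without drug (5.06 ± 0.141 against 3.49 ± 0.126 RPM, SD, n = 3) and lower with it (6.84 ± 2.01 against 9.43 ± 0.573 RPM), a difference of differences of -0.95 (SE 0.27, adjusted p = 0.0362). The call was lost in 10 of the 12 fits that each left out 1 of the libraries compared (adjusted p 0.0601 to 0.0979). For SESN1 the term was 1.07 (SE 0.39, adjusted p = 0.0849), and 1.52 (adjusted p = 0.000697) without ZM447439 2N replicate 1, where FOXO3 (-0.31, adjusted p = 0.0227) and FOXO4 (-0.48, adjusted p = 0.0369) passed too. With the culture block SESN3 (adjusted p = 0.0023), SESN1 (adjusted p = 0.00066) and FOXO1 (0.58, SE 0.14, adjusted p = 0.0106) passed, as did 26.3% of all genes. With cytochalasin D no member of the 6 passed in limma's interaction test, in which 8.34% of all genes did (2.43% with a positive and 5.91% with a negative term). SESN3 passed without cytochalasin D 4N replicate 1 (-0.92, adjusted p = 0.0272). With the block 3 passed (20.4% of all genes), FOXO1 (0.71, adjusted p = 0.00435) and SESN1 (0.65, adjusted p = 0.0134) with a positive and SESN3 (-0.70, adjusted p = 0.0143) with a negative term. Without the 6 libraries that stood apart, 6 of 6 passed in the interaction with ZM447439 (40.4% of all genes) and 4 of 6 in that with cytochalasin D (26.7%). For DDIT4, DDIT4L and PIK3IP1 the terms were 0.55 (SE 0.35), 0.50 (SE 0.36) and 0.56 (SE 0.23) with cytochalasin D and 0.21, 0.25 and 0.06 with ZM447439, without a test.

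Over the 18 libraries the members' levels, as log2(RPM + 0.5), were correlated to different degrees. Pearson's r was 0.943 for DDIT4 with FOXO4, 0.928 for DDIT4 with FOXO1, 0.922 for DDIT4 with DDIT4L and 0.919 for FOXO1 with FOXO4. For SESN1 and SESN2 it was 0.763, while SESN2 with PIK3IP1 (0.484) and DDIT4L with SESN1 (0.487) were the lowest pairs. These are descriptions over libraries that share treatments and scaling, and possibly cultures. Of 13810 protein-coding genes compared, those most like DDIT4 were SLC7A8 (r = 0.977), an amino acid transporter, and ADAMTS14 (0.975), those most like DDIT4L were SOD3 (0.988) and OLFML2A (0.988), and those most like PIK3IP1 were SLC2A10 (0.987) and IL10RB (0.986). SESN1 was followed most closely by CMBL (0.976) and CYFIP2 (0.965), and SESN2 by PPM1D (0.947), a phosphatase gene that is a p53 target, and TCEA3 (0.939). For SESN3 they were COL4A5 (0.974) and PPP1R2 (0.973), for FOXO1 ANGPTL2 (0.978) and ARHGEF40 (0.978), and for FOXO3 NCOA3 (0.97) and FOXN3 (0.959). FOXO4's nearest gene was LRRC27 (0.994).

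Textbook target genes of FOXO factors rose more often than they fell with both drugs. They were taken as a list of 25, written with earlier results of these data known, of which 21 passed the filter. Among all 20005 genes 32.2% rose and 40.2% fell in cytochalasin D 4N cells, 32.7% and 35.7% in cytochalasin D 2N, 24.9% and 32.7% in ZM447439 4N and 26.7% and 29.7% in ZM447439 2N cells. With cytochalasin D, 17 rose and 1 fell in 4N cells (median log2 change 0.79, beside -0.06 over all genes) and 18 rose and none fell in 2N cells (0.76 beside -0.01). With ZM447439, 14 rose and 1 fell in 4N (0.40 beside -0.04) and 14 rose and none fell in 2N cells (0.43 beside -0.01). Between untreated 4N and 2N cells 3 of the list were higher and 3 lower in 4N cells, where 13.8% of all genes were higher and 6.77% lower. RICTOR stands also in the mTOR list below, and INSR and IRS2 of this list are named again among the genes upstream of mTORC1. MXI1, an antagonist of MYC, rose from 6.42 to 51.8 RPM in cytochalasin D 4N cells (2.92, SE 0.12, adjusted p = 1.71e-11) and to 27.5 RPM in ZM447439 4N cells (2.02, SE 0.12, adjusted p = 5e-09). KLHL24, a ubiquitin ligase adaptor, rose by 2.87 and 2.27 and GABARAPL1, an autophagosome protein, by 2.40 and 1.78 in the same 2 comparisons. In 2N cells KLHL24 rose by 2.31 with cytochalasin D and 1.95 with ZM447439, MXI1 by 2.24 and 1.385, and GABARAPL1 by 2.09 and 1.76. CCNG2, an atypical cyclin of arrested cells, rose there by 1.56 and 1.46, beside 0.45 and 0.28 in 4N cells. Its untreated level was 16.75 RPM in 2N and 34.9 RPM in 4N cells. KLF6, a zinc-finger factor, was the one to fall, in 4N cells (-1.10 with cytochalasin D, adjusted p = 0.0258, and -1.25 with ZM447439, adjusted p = 0.0169).

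Some FOXO targets passed with 1 drug and not with the other. The proapoptotic gene BCL2L11 (BIM) rose by 1.29 (SE 0.19) in 4N and 0.77 (SE 0.19) in 2N cells with cytochalasin D, and differed by 0.21 (adjusted p = 0.347) and -0.18 (adjusted p = 0.427) with ZM447439. The repressor BCL6 rose by 1.61 (SE 0.33) and 1.24 (SE 0.33) with cytochalasin D, beside 0.40 (adjusted p = 0.323) and 0.18 (adjusted p = 0.68) with ZM447439. SOD2, the mitochondrial superoxide dismutase, rose by 1.00 (SE 0.28) and 1.14 (SE 0.28), beside 0.07 (adjusted p = 0.839) and 0.18 (adjusted p = 0.602). FBXO32, a ubiquitin ligase of muscle atrophy, rose with both drugs, by 1.16 and 1.07 with cytochalasin D and by 1.47 and 1.42 with ZM447439. Compared directly, cytochalasin D and ZM447439 differed in 8 of the 21 targets in 4N cells, 7 of them higher with cytochalasin D, where 43.7% of all genes differed, and in 7 of 21 in 2N cells, 6 of them higher with cytochalasin D, where 38.4% did. BCL2L11, BCL6, SOD2 and FBXO32 were chosen for mention after their values were seen.

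**Figure D4:**
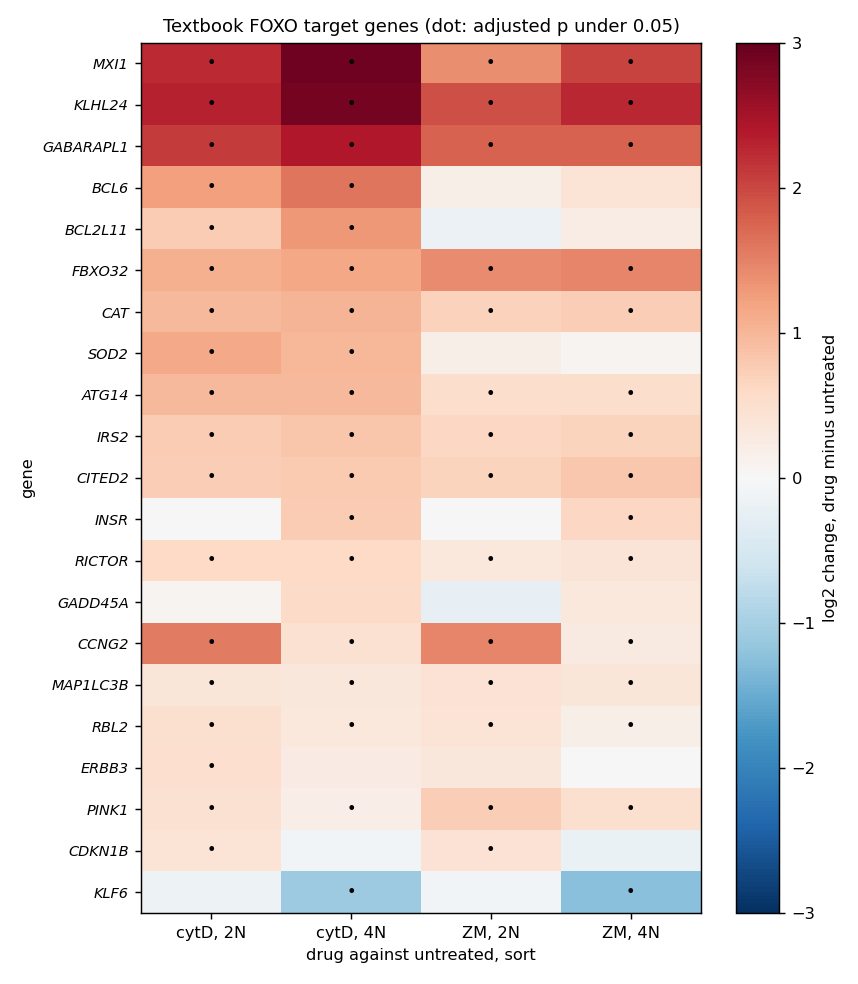
Log2 change of the 21 textbook FOXO target genes tested, in rows, with cytochalasin D or ZM447439 against untreated cells of the same sort, in columns (red higher, blue lower with drug; colour ends at 3 and -3). Dots mark an adjusted p under 0.05 in limma, which 17 genes with a rise and KLF6 with a fall have in cytochalasin D 4N cells.

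Genes of the TSC, RHEB and mTOR complexes split in both directions, as did all genes. Of all genes 72.5% and 68.4% changed with cytochalasin D and 57.5% and 56.5% with ZM447439, in 4N and 2N cells in turn. Of 20 tested, 6 rose and 10 fell with cytochalasin D in 4N cells (median -0.14, beside -0.06 over all genes) and 5 rose and 9 fell in 2N cells (median -0.04, beside -0.01). With ZM447439, 6 rose and 8 fell in 4N (median -0.14, beside -0.04) and 6 rose and 7 fell in 2N cells (median 0.01, beside -0.01). TFEB, the master factor of lysosome genes, rose from 2.52 to 14.1 RPM in cytochalasin D 4N cells (2.28, SE 0.14, adjusted p = 5.2e-10) and to 8.02 RPM in ZM447439 4N cells (1.50, SE 0.14, adjusted p = 2e-07). ULK1, the kinase that starts autophagy, rose by 1.07 and 0.67, and RICTOR, the mTORC2 scaffold, by 0.61 in cytochalasin D 4N cells. EIF4EBP1, the translation repressor that mTORC1 inactivates, fell from 63.6 to 11.8 RPM with cytochalasin D (-2.38, SE 0.15, adjusted p = 1.42e-09) and to 34.2 RPM with ZM447439 (-0.89, SE 0.15, adjusted p = 0.000147) in 4N cells. The mTORC1 activator RHEB fell by 1.34 and 0.85 and its relative RHEBL1 by 1.60 and 1.22. MTOR itself fell by 0.66 (SE 0.06) with cytochalasin D and 0.36 (SE 0.06) with ZM447439. RHEB differed also between untreated sorts, being higher in 4N cells by 0.46 (SE 0.07, adjusted p = 0.000237), and TFEB was lower there (-0.75, SE 0.14, adjusted p = 0.000921).

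**Figure D5:**
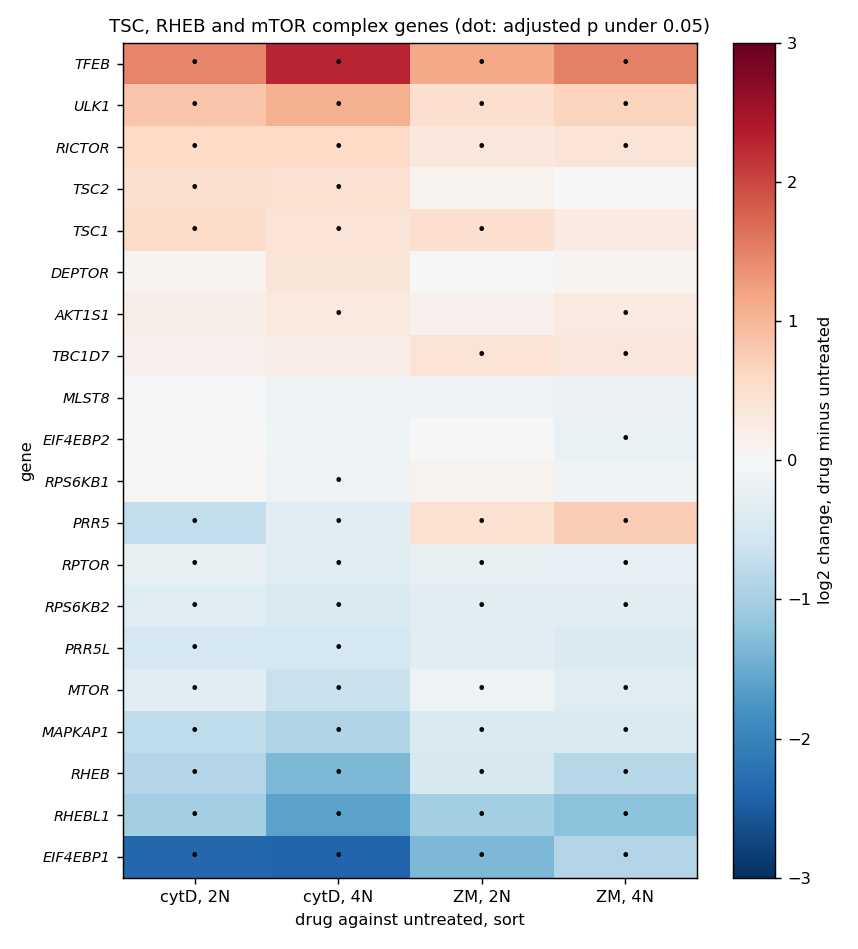
Log2 change of the 20 genes of the TSC, RHEB and mTOR list, in rows, in the same 4 comparisons of drug with untreated cells (red higher, blue lower with drug; colour ends at 3 and -3). Dots mark an adjusted p under 0.05 in limma; TFEB and ULK1 rise and EIF4EBP1, RHEBL1 and RHEB fall in all 4 columns.

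In the amino acid branch through which sestrins reach mTORC1 (GATOR, KICSTOR, RAG, Ragulator and folliculin genes, 25 tested), 8 rose and 7 fell with cytochalasin D in 4N and 13 rose and 6 fell in 2N cells (medians 0.06 and 0.21, beside -0.06 and -0.01 over all genes). With ZM447439, 6 rose and 6 fell in 4N and 12 rose and 4 fell in 2N cells (medians 0.10 and 0.26, beside -0.04 and -0.01). Of all genes 72.5% and 68.4% changed with cytochalasin D and 57.5% and 56.5% with ZM447439, in 4N and 2N cells in turn. RRAGB, a RAG GTPase gene, rose from 7.16 to 24.6 RPM in cytochalasin D 4N cells (1.72, SE 0.09, adjusted p = 8.74e-11) and by 1.12 (SE 0.09) in ZM447439 4N cells. CASTOR1, the arginine sensor that inhibits this branch, rose by 0.73 (SE 0.09) and 0.99 (SE 0.09). The GATOR2 genes SEH1L and MIOS fell by 1.31 and 1.20 with cytochalasin D and by 0.62 and 0.67 with ZM447439 in 4N cells. ITFG2 fell by 2.11 and 1.26, but it overlaps FOXM1, a G2/M factor gene on the opposite strand, over 2111 bases (means over the libraries 97.1 RPM for ITFG2 and 138.8 for FOXM1), and the reads cannot be told apart.

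Upstream of mTORC1, the kinase gene AKT1 fell from 230.8 to 115.4 RPM in cytochalasin D 4N cells (-0.998, SE 0.061, adjusted p = 7.62e-10) and to 147.5 RPM in ZM447439 4N cells (-0.65, SE 0.06, adjusted p = 3.44e-07). IRS2, the insulin receptor substrate, rose by 0.83 and 0.67, and the insulin receptor gene INSR by 0.77 and 0.62. In 2N cells IRS2 rose by 0.76 and 0.63, but INSR did not pass (0.004 and -0.012, limma adjusted p = 0.975 and 0.939). Untreated INSR was at 9.12 RPM in 4N and 15.45 RPM in 2N cells, beside 15.7 and 14.2 RPM with the drugs in 4N cells. PHLPP2, a phosphatase that turns AKT off, fell by 0.97 and 0.65 in 4N cells. Of 10 AMPK and LKB1 genes, which oppose mTORC1 in energy stress, none rose and 4 fell with cytochalasin D in 4N cells (5 with ZM447439), while 2 rose and 2 fell in 2N cells (3 and 4 with ZM447439). Among all genes in 4N cells 32.2% rose and 40.2% fell with cytochalasin D, and 24.9% rose and 32.7% fell with ZM447439. In 2N cells 32.7% rose and 35.7% fell with cytochalasin D, and 26.7% rose and 29.7% fell with ZM447439. The medians of the AMPK and LKB1 genes were -0.13 and -0.03 with cytochalasin D and -0.20 and 0.03 with ZM447439, in 4N and 2N cells in turn. PRKAG2, an AMPK subunit, fell by 1.64 (SE 0.10) with cytochalasin D and 0.39 (SE 0.10) with ZM447439 in 4N cells, and was higher in untreated 4N than 2N cells by 0.64 (SE 0.10, adjusted p = 0.00039). Among 12 alpha-arrestin and thioredoxin genes, 1 rose and 4 fell with cytochalasin D in 4N cells (3 and 3 in 2N), and 3 rose and 2 fell with ZM447439 (2 and 3 in 2N). Their medians lay between 0.002 and 0.085, beside -0.061 to -0.009 over all genes. Of all genes 72.5% and 68.4% changed with cytochalasin D and 57.5% and 56.5% with ZM447439, in 4N and 2N cells in turn. ARRDC3, an arrestin that lowers surface receptors, rose by 1.03 (SE 0.18) and 0.57 (SE 0.18) in 4N cells, and TXN, thioredoxin, fell by 0.68 (SE 0.18) with cytochalasin D.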

How the data were processed

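The 18 libraries were read from a single table in which the authors deposited RPKM per gene. Per the submitters' processing notes, CASAVA 1.8.2, TopHat2, edgeR and the hg19 build were used. Which program counted the reads was not given in the sources used here. The deposited RPKM were divided by each gene's whole genomic span, as multiplying by the GENCODE 29 span gave whole reads (within 0.01 reads in all 18 libraries) for 75.33% of the 20005 genes tested; for the other 24.67% the length was found from the values. Levels are therefore RPM, RPKM multiplied by that length, since an RPKM filter would drop long genes. Symbols were matched for 52338 of 57773 identifiers (90.59%), and no column was left unmapped. TXNIP was not analysed here.

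Genes with a mean of at least 0.5 RPM (about 29.2 reads in the median library) were tested with limma 3.58.1 in R 4.3.3, with a mean-variance trend, on log2(RPM + 0.5) with 1 mean per group over all 18 libraries (12 residual degrees of freedom) and Benjamini-Hochberg adjustment over 20005 genes, two-sided, at 0.05. The fit was tested on simulated data. Replicates are biological per the labels' design text. Library deviations from group means correlated at 0.334 to 0.769 in all 9 pairs of 2N and 4N libraries of the same treatment and number. Of 18 pairs with the same treatment and another number, 6 exceeded 0.1 as well (-0.697 to 0.589). These values therefore cannot decide whether the numbers pair the sorts of a culture, and the culture block assumes that they do. All 12 same-numbered pairs of a cytochalasin D and a ZM447439 library exceeded 0.1 (0.323 to 0.63). Same-numbered pairs of an untreated with a drug library exceeded 0.1 in all 16 pairs of numbers 1 and 3 (0.191 to 0.373). The 8 such pairs of number 2 did not (-0.288 to -0.154). Of 72 pairs with another treatment and another number, 24 exceeded 0.1 (-0.556 to 0.477). Whether the numbers pair the drugs, or untreated with treated cells, was therefore not settled.

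DDIT4, DDIT4L and PIK3IP1 were tested only between sorts, because the other comparisons use the changes on which they were chosen. The tests between sorts use the same libraries, so they are not independent of that choice. The members, the gene lists and the 6 libraries that stand apart were chosen with earlier results of these data known. Named genes are all members, the 2 protein-coding genes most correlated with each, and up to 3 genes per list and direction with the largest change among those that passed; MTOR, BCL6, BCL2L11, SOD2 and FBXO32 with drug were added after their values were seen. The counts of 1 gene list are not reported here. Alternatives were another pseudocount, no filter, the RPKM scale, median-ratio rescaling, blocks, fewer libraries and leaving out each library. Sequences are from RefSeq (GRCh38.p14). Python 3.11.15, pandas 2.3.3, numpy 2.4.6 and matplotlib 3.10.9 were used.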

Additional observations from a re-analysis of the deposited data

Results flagged for a closer look

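In the fit without a culture block, the difference of SESN3 between sorts changed with a drug in a test of that difference: the interaction of sort with ZM447439 was -0.95 (log2; SE 0.27, adjusted p = 0.0362, limma), a call lost in 10 of 12 fits that left out 1 library. With the culture as a block, SESN3 (adjusted p = 0.0023), SESN1 (1.07, adjusted p = 0.00066) and FOXO1 (0.58, adjusted p = 0.0106) passed. Of all genes 11.3% passed this interaction test without the block and 26.3% with it. By replicate number, 4N minus 2N of SESN3 was 0.42, 0.48 and 0.54 in untreated cells and 0.05, -0.80 and -0.66 with ZM447439, so that replicate 1 moved least. With cytochalasin D it was -0.14, -0.18 and -0.36, and that interaction was -0.70 (adjusted p = 0.136; adjusted p = 0.0143 with the culture block). The summed G2/M markers were 4279 to 4705 RPM in untreated 4N and 657.2 to 838 RPM in ZM447439 4N libraries, and their part in the SESN3 difference was not tested. The antisense gene AP000787.1, which spans SESN3 wholly, had means of 3.59 RPM in untreated 2N and 5.145 RPM in untreated 4N libraries. With ZM447439 it had 9.565 RPM in 2N and 7.01 RPM in 4N libraries, so the strand behind this interaction is not known.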

How the results depend on the processing

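With log2(RPM + 2) or median-ratio rescaling no count of members that passed changed by over 1.5 times. On the RPKM scale, where the filter removed SESN1, SESN3 and FOXO1, the counts with cytochalasin D were 3 in 4N and 3 in 2N cells, with ZM447439 2 and 2, between the drugs in 4N cells 1, and 0 for the ZM447439 interaction; fewer members were tested there. With no filter 3 members passed with ZM447439 in 2N cells and 0 in the ZM447439 interaction. With the replicate number as a block, 2 passed between untreated sorts, 3 between ZM447439 sorts, 4 between the drugs in 4N cells and 2 in the ZM447439 interaction. With the culture as a block, 6 passed between untreated sorts, 5 between ZM447439 sorts and 3 in each interaction. The block did not change any other count by over 1.5 times. Fitting only the libraries compared gave 3 with ZM447439 in 2N cells, 3 between untreated sorts, 0 between ZM447439 sorts, 1 between the drugs in 2N cells and 2 in the cytochalasin D interaction. Without the 6 libraries that stood apart, the counts were 6, 2 and 8 between untreated, cytochalasin D and ZM447439 sorts, 5 between the drugs in 4N cells, and 4 and 6 in the interactions with cytochalasin D and ZM447439; the PIK3IP1 term with ZM447439 was then -0.44, against 0.06 over all libraries. Leaving out each library in turn gave 6 to 6 and 5 to 6 members with cytochalasin D in 4N and 2N cells and 4 to 5 and 3 to 4 with ZM447439. Between sorts it gave 1 to 1 (untreated), 0 to 0 (cytochalasin D) and 0 to 5 (ZM447439), between the drugs 1 to 3 in 4N and 1 to 3 in 2N cells, and 0 to 1 and 0 to 4 in the interactions with cytochalasin D and ZM447439. The cause of these changes was not tested. FOXO1, with 87 to 465 reads per library, had the least depth.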
